A study of Mus musculus with 38 samples.

Results

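B lineage genes were followed by stage in leukaemic and normal mouse bone marrow, as 31 of the 18193 genes that the array reads by name, through 63 of its 45101 probe sets. A probe set was taken when the annotation used here gave it exactly 1 symbol and that symbol was one of the 31. The genes were grouped by role into 7 early genes, 6 genes of the B cell receptor and its signalling, 6 transcription regulators, 9 genes of mature B cells, 2 genes of secretory cells and Cd24a, which was kept alone because it also marks other blood lineages. Each gene was represented by its probe set with the highest mean over all arrays, and 13 genes had more than 1 probe set. Most arrays are leukaemic, so this probe set, called the brightest below, need not be the brightest in normal marrow. The choice can therefore favour a probe set that falls less.

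B cells form in marrow in ordered steps. A progenitor responding to interleukin 7 switches on the recombinase that cuts immunoglobulin genes and the template-free polymerase that adds bases at their joints. It pairs the first heavy chain with a surrogate light chain, and only later carries a complete receptor and the surface proteins of a mature cell. The regulators Ebf1, Pax5 and Foxo1 set up this programme, and the coactivator encoded by Pou2af1 acts with octamer-binding factors at immunoglobulin and other B cell promoters.

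RNA from whole marrow was measured with 1 Affymetrix array per mouse in 38 C57BL/6 mice. Leukaemia was carried by 34 mice. Marrow progenitors bearing c-kit had been infected with a retrovirus encoding 1 MLL fusion oncogene and transplanted into lethally irradiated syngeneic recipients, which were male or female, and marrow was collected at euthanasia and cryopreserved. The cohorts were 7 MLL-ENL, 5 MLL-AF9, 5 MLL-GAS7, 8 MLL-AF10 and 9 MLL-AF1p mice, and each leukaemic mouse is named by fusion and number. The 4 normal samples were whole marrow of wild type C57BL/6 mice, and the labels give them no virus, no transplant and no irradiation. The fusion was therefore carried by the virus into the infected cells, and its expression in their descendants was not measured here. The recipients' own surviving cells were not separated out. Fusion, virus, transplant, irradiation and disease cannot be told apart in a comparison with normal marrow. Whether normal marrow was cryopreserved is not stated here, and a difference in this could not be told apart either. In bulk marrow, fewer B lineage cells and less RNA per cell cannot be told apart either.

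The deposited values are linear intensities, whose trimmed mean, without the lowest and highest 2% of an array, averages 500 over the 38 arrays. The array medians ran from 129.2 to 208.3 over the 38 arrays and from 160.1 to 184.9 over the normal ones. Changes are given on the log2(intensity + 46.1) scale as group mean minus normal mean, ± the standard error (SE) of limma, and they understate the change of dim probe sets. A gene was called where its p, adjusted by Benjamini-Hochberg over 45037 probe sets, was under 0.05, and the median change of all of them against normal was 0.12. The leukaemia arrays fell into sets of 16 and 18, seen in the values and not in the labels, each with mice of all 5 cohorts. Set 2 held the 18, and the 4 normal arrays were kept with it, although normal mouse 2 was nearer to set 1 at 6 of the 11 probe sets that gave the split. Erythroid cells were also fewer or held less of their RNA in the leukaemias. The summed intensity of the 5 erythroid markers measured was 235 to 879 in the leukaemias and 57898 to 84566 in normal marrow. The 3 NK cell markers measured also fell, with sums of 439 to 4651 in the leukaemias and 3112 to 4549 in normal marrow. The log2 ratio of the 3′ to the 5′ actin probe sets, a sign of RNA quality, was 0.15 to 0.65 in the leukaemias and 0.07 to 0.22 in normal marrow, and its part in the changes against normal was not tested.

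Promoters of members that fell together are shown first, because 2 known B lineage motifs could be read in them. RefSeq promoter windows (build GRCm38.p6, from 250 bases before to 50 after the annotated start of the gene) were used for 25 of the 31 genes, in 27 windows. The promoters searched do not cover every chromosome. The octamer ATGCAAAT, searched on both strands, occurred in 2 of the 27 windows, those of Vpreb3 and Blnk, and in 1.74% of 32851 promoters. The core CCCNNGGG of sites bound by Ebf1 proteins reads the same on both strands and occurred in 5 windows (Igll1, Spib, Cd22, Bank1 and Foxo1), and in 13.7% of the promoters searched. Both octamer matches lie on the strand opposite to the gene, with the first base 45 before the start of Vpreb3 and 130 before that of Blnk. In the Spib window 2 core matches overlap. No window held both motifs. Capitals mark the motif matches in these windows, which run 5′ to 3′ along the gene.
Vpreb3, chr10:75948050-75948349, plus strand: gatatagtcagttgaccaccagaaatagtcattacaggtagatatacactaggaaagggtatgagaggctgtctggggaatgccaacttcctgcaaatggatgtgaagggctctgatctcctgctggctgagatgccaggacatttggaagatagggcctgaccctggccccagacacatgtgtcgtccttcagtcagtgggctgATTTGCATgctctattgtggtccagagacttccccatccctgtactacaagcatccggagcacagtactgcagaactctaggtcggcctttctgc
Blnk, chr19:40994172-40994471, minus strand: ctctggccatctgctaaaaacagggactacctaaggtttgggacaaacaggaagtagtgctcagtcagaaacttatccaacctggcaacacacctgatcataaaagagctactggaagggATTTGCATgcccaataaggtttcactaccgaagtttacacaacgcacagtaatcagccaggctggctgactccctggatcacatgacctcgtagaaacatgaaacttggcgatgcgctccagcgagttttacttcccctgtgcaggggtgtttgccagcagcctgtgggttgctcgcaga
Igll1, chr16:16863936-16864235, minus strand: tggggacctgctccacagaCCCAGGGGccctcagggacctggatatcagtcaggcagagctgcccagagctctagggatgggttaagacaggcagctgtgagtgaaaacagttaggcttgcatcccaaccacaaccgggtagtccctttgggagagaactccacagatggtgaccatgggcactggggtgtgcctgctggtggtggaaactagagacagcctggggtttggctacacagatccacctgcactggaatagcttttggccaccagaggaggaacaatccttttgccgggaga
Spib, chr7:44532022-44532321, minus strand: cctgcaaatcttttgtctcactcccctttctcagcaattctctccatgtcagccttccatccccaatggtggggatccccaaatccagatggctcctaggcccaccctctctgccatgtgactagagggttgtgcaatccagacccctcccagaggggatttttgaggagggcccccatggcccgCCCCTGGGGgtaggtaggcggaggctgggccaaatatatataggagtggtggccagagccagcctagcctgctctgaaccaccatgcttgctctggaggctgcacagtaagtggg
Cd22, chr7:30878979-30879278, minus strand: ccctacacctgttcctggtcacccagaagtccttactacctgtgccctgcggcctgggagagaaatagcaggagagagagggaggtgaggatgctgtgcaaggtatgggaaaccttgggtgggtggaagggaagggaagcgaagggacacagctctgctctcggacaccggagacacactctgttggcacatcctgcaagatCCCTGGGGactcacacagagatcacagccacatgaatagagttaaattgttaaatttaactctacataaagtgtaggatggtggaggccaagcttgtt
A match describes letters in a window and does not show that a factor bound there.

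Across the 5 cohorts together, 29 of the 31 genes were lower than in normal marrow and 0 were higher. Over all probe sets tested, 8.83% were lower and 15.6% higher in that comparison. Of the 63 member probe sets 51 were lower and 0 higher. The median change was -2.42 over the 31 genes, -3.19 over the early genes, -2.07 over the receptor genes, -1.60 over the transcription regulators, -1.87 over the mature genes and -2.00 over the 2 secretory genes, and the differences between these lists were not tested. Every leukaemia lay below every normal sample for 22 of the 31 genes, which held for 2.58% of all probe sets. These 22 were 6 of 7 early genes, 5 of 6 receptor genes, 5 of 6 transcription regulators, 4 of 9 mature genes, Mzb1 of the secretory pair, and Cd24a.

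Each cohort was set against the same 4 normal samples, so the 5 cohort comparisons share them and are given side by side. In MLL-AF1p mice 28 genes were lower, against 8.04% of all probe sets, and 0 were higher, against 12.8%. In MLL-AF10 mice 28 were lower and 0 higher, against 7.9% and 13.4% of all probe sets. MLL-GAS7 mice had 22 lower and 0 higher, where 6.52% and 8.13% of all probe sets were called. MLL-AF9 mice had 27 lower and 0 higher, with 6.36% and 11.3% called over all probe sets. MLL-ENL mice had 27 lower and 0 higher, with 7.37% and 15.8% called over all probe sets. The median change of the 31 genes ran from -1.85 in MLL-GAS7 to -2.62 in MLL-AF1p mice, with MLL-AF9 at -2.17, MLL-AF10 at -2.47 and MLL-ENL at -2.48. The early medians lay closer together, between -3.43 in MLL-AF1p and -3.05 in MLL-GAS7 and MLL-ENL mice, and the mature medians spread from -2.42 in MLL-ENL to -1.35 in MLL-GAS7 mice; these spreads were not tested.

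**Figure D1:**
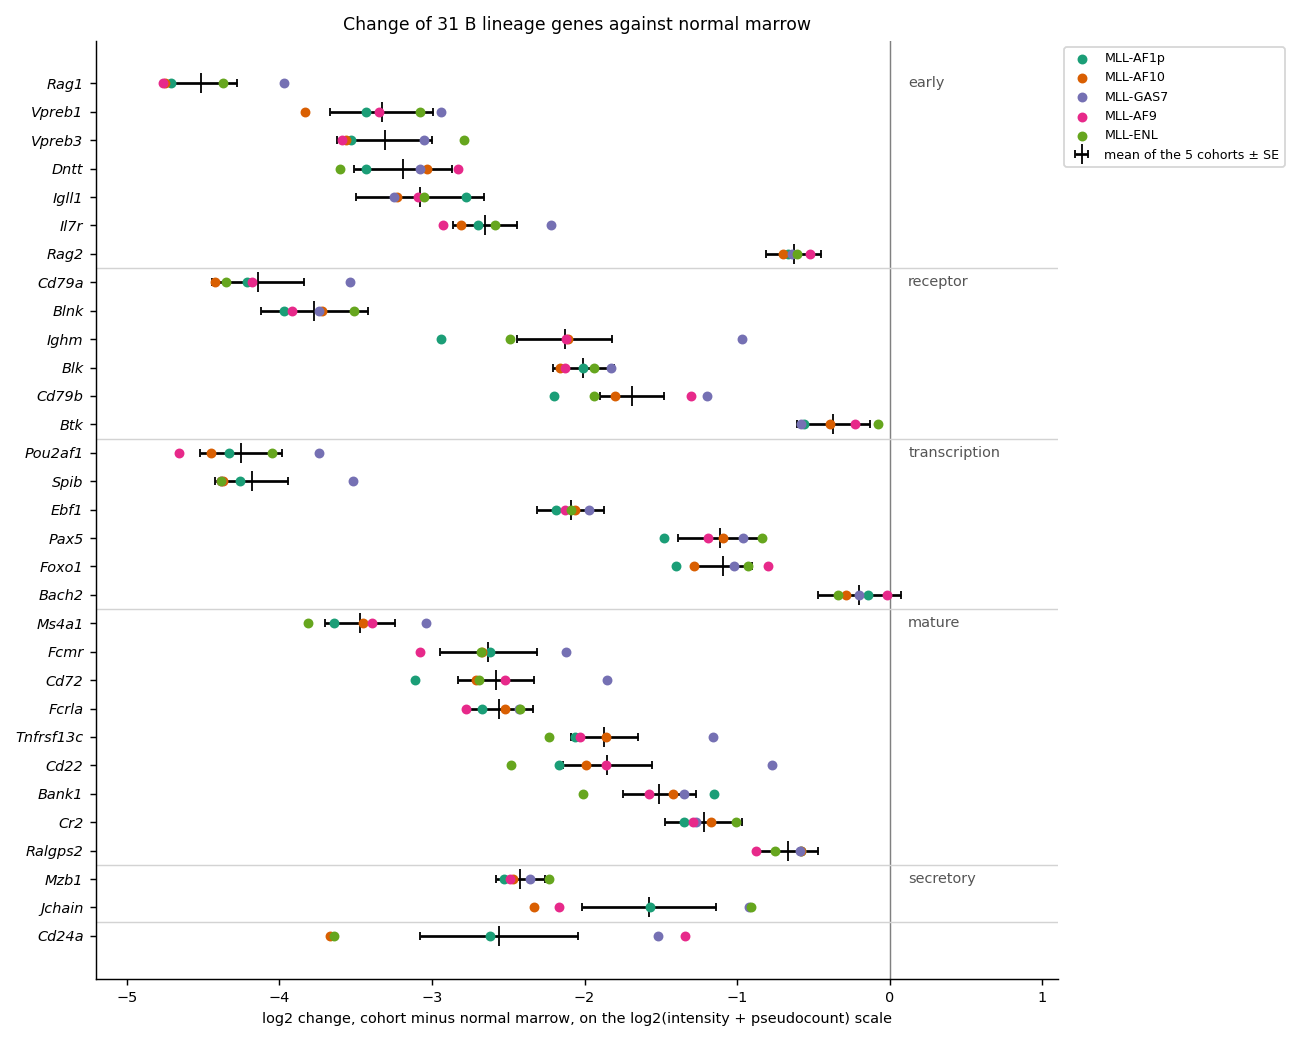
Log2 change of each of the 31 genes in each of the 5 cohorts (coloured points) and in their mean (black tick with its SE) against normal marrow, grouped by role. All points lie left of 0, and the Rag1 points lie between -4.76 and -3.97.

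All 7 early genes fell in the 5 cohorts together, and Rag1, which encodes a recombinase subunit that cuts immunoglobulin and T cell receptor genes, fell furthest of the 31. Rag1 intensity had a lowest, median and highest value of 1.8, 9.45 and 157 in the 34 leukaemias, and was 1783, 2096, 1058 and 1940 in normal mice 1 to 4. No leukaemia reached its own array's median, and the highest, MLL-GAS7_407, stayed far below the lowest normal sample. The change was -4.51 ± 0.23 (limma adjusted p = 2.25e-18), or 22.8-fold. Rag2, the partner subunit, lies next to Rag1 on chromosome 2 with 0 genes between them. Its probe set was dim in every sample, with 9.1, 17.6 and 64.1 as lowest, median and highest in the leukaemias, and 14.6, 155, 33.0 and 123 in normal mice 1 to 4. The groups overlapped, and normal mice 1 and 3 lay within the leukaemia range. On the aligned log2 scale only 1 leukaemia lay below all normal samples, although more did so in the intensities as deposited. Rag2 fell by 0.63 ± 0.18 (adjusted p = 0.00791), and this call was lost without normal mouse 2 (-0.32, adjusted p = 0.219) or normal mouse 4 (-0.46, 0.111). Taken alone, MLL-GAS7 mice (adjusted p = 0.0518) and MLL-AF9 mice (0.115) did not pass for Rag2.

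The surrogate light chain is built from the products of Vpreb1 and Igll1, which are neighbours on chromosome 16 with 0 genes between them. Vpreb1 intensity was 7.1, 51.2 and 260 (lowest, median, highest) in the leukaemias and 2698, 922, 341 and 1279 in normal mice 1 to 4. The groups did not overlap, but the normal samples themselves spread widely, with normal mouse 1 highest and normal mouse 3 lowest. Vpreb1 fell by 3.33 ± 0.34 (adjusted p = 6.01e-10). A probe set annotated to both Vpreb2 and Vpreb1, which is not a member, fell by 2.54 (adjusted p = 5.23e-07). Igll1, the lambda5 chain, had 13.2, 153 and 698.8 in the leukaemias and 2553, 1426, 790 and 1867 in normal mice 1 to 4, with no overlap. It fell by 3.08 ± 0.42 (adjusted p = 3.87e-07). Its name marks that probe set as one that can read related transcripts, and the other Igll1 probe set, with at most 136 in any sample, gave -0.14 (adjusted p = 0.748). Vpreb3, whose product binds newly made immunoglobulin chains in B cell precursors and whose promoter holds the octamer shown above, had 39.3, 202 and 448 in the leukaemias and 3154, 2092, 1698 and 3080 in normal mice 1 to 4. All 34 leukaemias were below all 4 normal samples, and Vpreb3 fell by 3.31 ± 0.31 (adjusted p = 8.49e-11).

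Dntt encodes terminal deoxynucleotidyl transferase, which adds bases at the joints of rearranging receptor genes. Its intensity was 7.1, 62.9 and 318 in the leukaemias, against 2225, 900, 586 and 983 in normal mice 1 to 4, and the groups did not overlap. Dntt fell by 3.19 ± 0.32 (adjusted p = 3.42e-10). Of its other probe sets one fell by 3.50 and one, with group medians of at most 97.2, gave -0.54 (adjusted p = 0.172). Il7r, the receptor chain for interleukin 7, which T cells also carry, had 58.2, 164 and 932 in the leukaemias and 2112, 1462, 1099 and 1477 in normal mice 1 to 4. MLL-GAS7_407 came nearest to the normal samples and still lay below the lowest of them. Il7r fell by 2.65 ± 0.21 (adjusted p = 6.26e-13), and its other probe set by 2.91. The 7 T cell markers measured had a summed intensity of 515 to 1999 in the leukaemias and 1920 to 4621 in normal marrow, and 6 of the 7 fell. The part of T cells in the change of Il7r, Rag1 and Dntt was not tested.

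The 4 normal samples differed among themselves in a way that touched most members. Normal mouse 3 was the lowest of the 4 for 22 of the 31 genes and for 6 of the 7 early genes. Normal mouse 1 was highest for 5 of the 7 early genes and for 0 of the 9 mature genes, for which normal mouse 2 was highest for 5 and normal mouse 4 for 4. Without normal mouse 1 the early median was -2.83, and without normal mouse 3 it was -3.47. With any 1 mouse left out, at least 27 of the 31 genes were called lower.

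**Figure D2:**
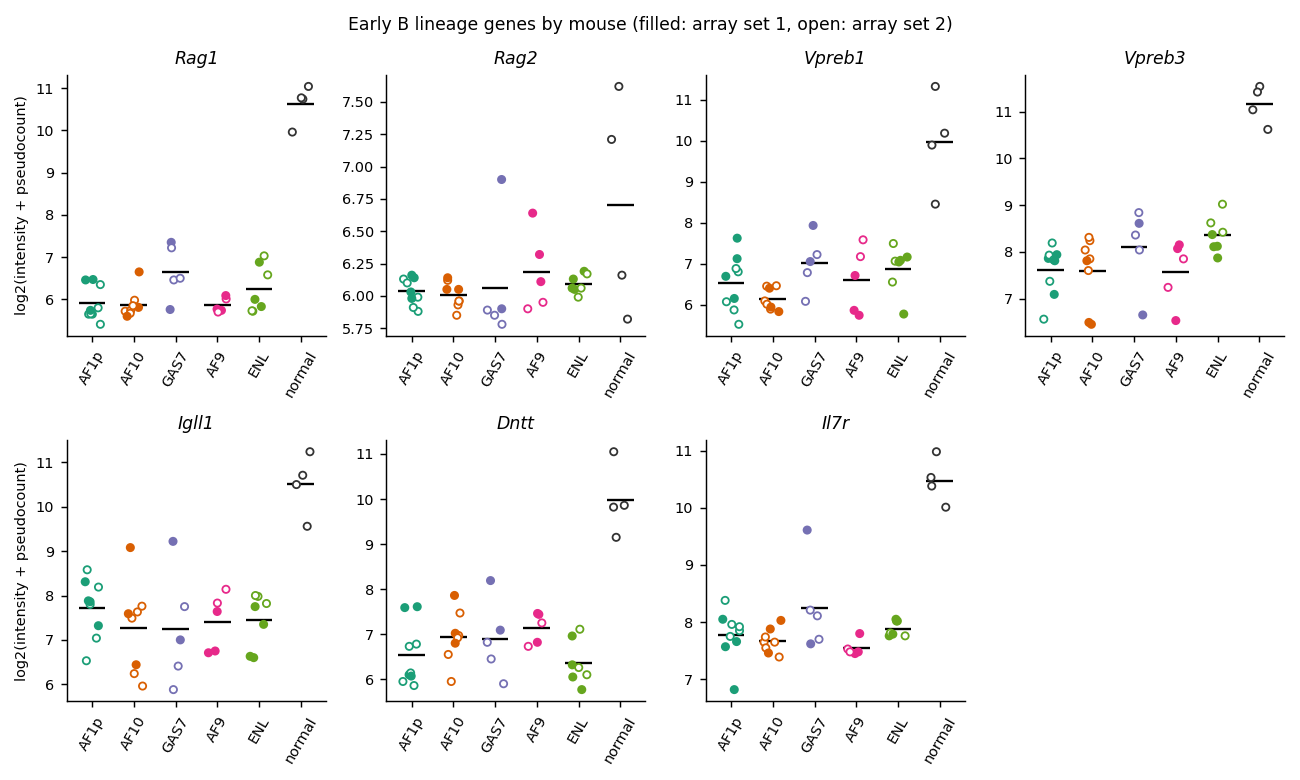
Log2(intensity + 46.1) of the 7 early genes in each mouse, by cohort with normal marrow on the right, where bars are group means, filled points are arrays of set 1 and open points arrays of set 2. For all of them except Rag2 the 34 leukaemias lie below the 4 normal samples.

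Of the 6 genes of the B cell receptor and its signalling, 5 fell and Btk did not pass the test. Cd79a and Cd79b encode the paired signalling chains of the receptor. Cd79a intensity was 16.2, 186 and 1067 in the leukaemias and 4774, 5318, 3163 and 5345 in normal mice 1 to 4, with no overlap, and Cd79a fell by 4.14 ± 0.30 (adjusted p = 4.88e-14). Cd79b had 540, 1005 and 2335 in the leukaemias, against 5361, 4465, 2959 and 4648 in normal mice 1 to 4. It did not overlap either, but all leukaemias lay above the median of their own array, and the fall was 1.69 ± 0.21 (adjusted p = 3.77e-08).

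Blnk, the adaptor that couples the receptor to its downstream enzymes, fell by 3.77 ± 0.35 (adjusted p = 8.07e-11). Its intensity was 20.2, 98.3 and 784 in the leukaemias and 3114, 2233, 1093 and 2465 in normal mice 1 to 4. MLL-GAS7_407 stood well above the other leukaemias for Blnk, and its value was still below the lowest normal one. On chromosome 19 Blnk lies 2 genes away from Dntt. Blk, a kinase of the Src family used by B cells, had 137, 215 and 615 in the leukaemias and 1478, 1321, 677 and 1525 in normal mice 1 to 4, without overlap. It fell by 2.01 ± 0.20 (adjusted p = 3.37e-10). Btk, a receptor-proximal kinase that myeloid cells also make, behaved otherwise. It had 574, 1434 and 2042 in the leukaemias and 2082, 2334, 1708 and 1699 in normal mice 1 to 4. Only 17 of the 34 leukaemias lay below all normal samples, and the change was -0.37 ± 0.24 (adjusted p = 0.296). Between the array sets the mean Btk level of the leukaemias differed by -0.59 (set 1 minus set 2), and within set 2 alone its change against normal was -0.08 (adjusted p = 0.767). The 6 myeloid markers measured summed to 69139 to 228253 in the leukaemias and 110459 to 191127 in normal marrow. Of the 6, 3 were higher in the 5 cohorts together (Ly86 1.78, Csf1r 1.43, Elane 0.82) and 1 was lower (Ltf -2.81). Over all probe sets 15.6% were higher and 8.83% lower. The part of myeloid cells in the Btk values was not tested.

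Ighm, the heavy chain of immunoglobulin M, was read by 11 probe sets that disagreed. The brightest had 780, 2706 and 10634 in the leukaemias and 13927, 13597, 17895 and 20465 in normal mice 1 to 4, with no overlap, and fell by 2.13 ± 0.31 (adjusted p = 9.73e-07). In all, 7 of the 11 fell, by up to 2.30, and 4 did not pass the test, with changes of up to 0.37. Probe sets of immunoglobulin genes can read rearranged variable segments as well as the constant region, and which part each of the 11 reads was not determined here.

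Of the 6 transcription regulators, 5 fell at their brightest probe set. Pou2af1 had 13.1, 105 and 702.1 in the leukaemias and 4133, 3479, 1937 and 3826 in normal mice 1 to 4. The groups did not overlap, and Pou2af1 fell by 4.25 ± 0.27 (adjusted p = 1.57e-15). Spib, an Ets family factor of B cells and plasmacytoid dendritic cells, had 66.2, 160 and 862 in the leukaemias and 5643, 4803, 3100 and 5997 in normal mice 1 to 4. It fell by 4.18 ± 0.24 (adjusted p = 4.27e-17), again without overlap. The 5 plasmacytoid dendritic cell markers measured had a summed intensity of 1114 to 7416 in the leukaemias and 2294 to 4032 in normal marrow, with 2 of the 5 lower, Siglech by 1.74 and Ccr9 by 1.51. Their part in the Spib change was not tested.

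Ebf1, the factor that commits progenitors to the B lineage, had 14.2, 55.1 and 145 in the leukaemias and 640, 343, 283 and 531 in normal mice 1 to 4. No leukaemia reached its own array's median. Ebf1 fell by 2.09 ± 0.22 (adjusted p = 1.81e-09), and 3 other Ebf1 probe sets also fell, with changes of -3.78, -3.08 and -2.79, while 1 gave -0.26 (adjusted p = 0.405). In normal marrow the 3 that fell further were brighter, with median intensities of 1142, 757 and 634.3 against 436.9. Pax5, which keeps cells in the B lineage, had 28.1, 196 and 355 in the leukaemias and 497, 495, 448 and 548 in normal mice 1 to 4. The groups did not overlap and the normal samples lay close together. Pax5 fell by 1.11 ± 0.28 (adjusted p = 0.00225), and its other probe set, with group medians of at most 73.4, gave -0.22 (adjusted p = 0.612). Pax5 missed the threshold in MLL-GAS7 (adjusted p = 0.0579) and MLL-ENL mice (0.0597) taken alone. Foxo1, which is needed for the early steps and is made in many other cells, had 166, 384 and 721 in the leukaemias and 775, 822, 818 and 1604 in normal mice 1 to 4. It fell by 1.09 ± 0.19 (adjusted p = 2.07e-05), and by 0.87 without normal mouse 4, the highest of the 4. The other Foxo1 probe sets gave -1.46, -0.97 and, at a dim probe set, -0.06 (limma adjusted p = 0.825).

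Bach2, a repressor active in B cells before they become plasma cells, depended on the probe set. At its brightest one it had 17.2, 185 and 411 in the leukaemias and 205, 190, 220 and 372 in normal mice 1 to 4, which overlapped, and the change was -0.20 ± 0.27 (adjusted p = 0.649). Its other probe sets fell by 3.47 (adjusted p = 1.12e-11) and 2.86 (adjusted p = 7.11e-11). In normal marrow these other probe sets were the brighter ones, with median intensities of 2006 and 1533 against 212.6. Averaging its 3 probe sets gave a call for Bach2, at -2.18 (adjusted p = 4.88e-11).

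**Figure D3:**
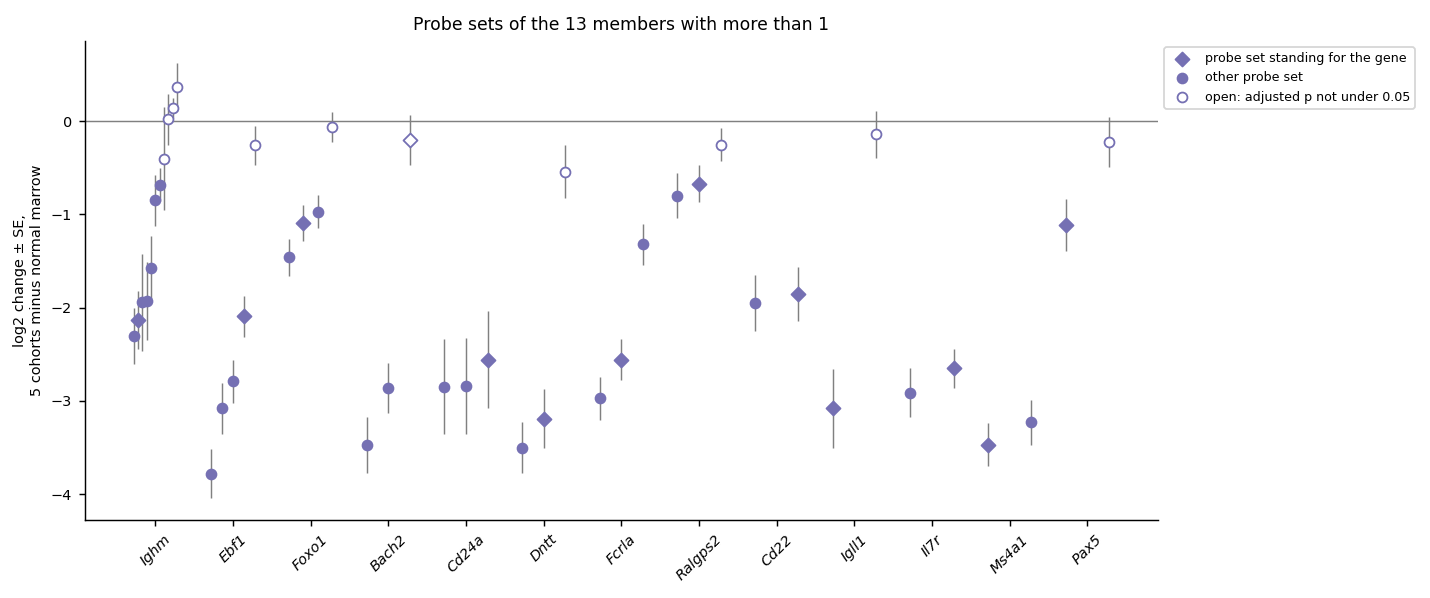
Log2 change ± SE of each probe set in the 5 cohorts together against normal marrow, for the 13 genes with more than 1 probe set, where a diamond is the probe set that stands for the gene and an open symbol did not pass the test. Ighm spans -2.30 to 0.37, Bach2 -3.47 to -0.20 and Igll1 -3.08 to -0.14.

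All 9 genes of mature B cells fell in the 5 cohorts together, by 0.67 to 3.47. Ms4a1, which encodes the surface protein CD20, had 79.4, 192 and 1001 in the leukaemias and 3270, 3966, 1789 and 3786 in normal mice 1 to 4. The groups did not overlap and Ms4a1 fell by 3.47 ± 0.23 (adjusted p = 7.44e-15). Fcmr, a receptor for immunoglobulin M, had 10.5, 115 and 545 in the leukaemias, against 1011, 1308, 560 and 1264 in normal mice 1 to 4. The highest leukaemia, MLL-GAS7_407, came close to normal mouse 3, and Fcmr fell by 2.63 ± 0.32 (adjusted p = 2.79e-08). Cd72, an inhibitory coreceptor, had 33.3, 218 and 633 in the leukaemias and 952, 1896, 1759 and 2670 in normal mice 1 to 4, and fell by 2.58 ± 0.25 (adjusted p = 2.35e-10). Fcrla, an intracellular protein of the Fc receptor-like family, had 29.6, 120 and 504 in the leukaemias and 1305, 825, 854 and 1364 in normal mice 1 to 4. Neither Cd72 nor Fcrla overlapped between the groups, and Fcrla fell by 2.56 ± 0.22 (adjusted p = 1.16e-11).

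For the other 5 mature genes at least 1 leukaemia reached the normal range. Tnfrsf13c, the receptor for the survival factor BAFF, had 58.5, 138 and 682 in the leukaemias and 775, 921, 472 and 999 in normal mice 1 to 4. Here 33 of the 34 leukaemias lay below all normal samples, and Tnfrsf13c fell by 1.87 ± 0.22 (adjusted p = 1.86e-08). Cd22, an inhibitory lectin of the B cell surface, had 131, 308 and 2152 in the leukaemias and 1978, 2038, 978 and 1930 in normal mice 1 to 4. MLL-GAS7_408 exceeded all 4 normal samples for Cd22, which fell by 1.85 ± 0.29 over the 5 cohorts (adjusted p = 5.51e-06). Bank1, a scaffold of receptor signalling, fell by 1.51 ± 0.24 (adjusted p = 5.93e-06), with 31 of 34 leukaemias below all normal samples. Cr2, the complement receptor of mature B cells, fell by 1.22 ± 0.25 (adjusted p = 0.000241), with 30 of 34 below. Ralgps2, an exchange factor for Ral proteins, had 194, 450 and 1286 in the leukaemias and 660, 908, 568.1 and 983 in normal mice 1 to 4. Its fall of 0.67 ± 0.20 (adjusted p = 0.00877) was the smallest of the 9 and was lost without normal mouse 2 (-0.56, adjusted p = 0.068) or normal mouse 4 (-0.58, 0.065). The other Ralgps2 probe sets gave -0.80 (limma adjusted p = 0.0103) and -0.25 (0.368).

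Mzb1, a chaperone of immunoglobulin assembly in the endoplasmic reticulum, had 185, 305 and 492 in the leukaemias and 2916, 1880, 1388 and 2099 in normal mice 1 to 4. Its leukaemia values were narrowly spread and did not overlap the normal ones, and Mzb1 fell by 2.42 ± 0.16 (adjusted p = 2.64e-15). Jchain, which joins the units of secreted immunoglobulin M and A, ranged from 332 through a median of 2094 to 6528 in the leukaemias and was 4384, 5269, 10538 and 10310 in normal mice 1 to 4. Only 26 of 34 leukaemias were below all normal samples. Jchain fell by 1.58 ± 0.44 over the 5 cohorts (adjusted p = 0.00627), and by itself did not pass the test in MLL-GAS7 mice (-0.92, adjusted p = 0.303) or MLL-ENL mice (-0.91, 0.227).

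Cd24a, a surface glycoprotein of B cell precursors that erythroid and granulocytic cells also carry, had 405.6, 5549 and 18447 in the leukaemias and 27351, 32012, 31729 and 38250 in normal mice 1 to 4. All leukaemias were below all normal samples but differed widely from each other, and Cd24a fell by 2.56 ± 0.52 (adjusted p = 0.000241). Its median intensity was lowest in MLL-ENL mice, at 1828, then 3191 in MLL-AF10, 5367 in MLL-AF1p and 10190 in MLL-AF9 mice, and highest in MLL-GAS7 mice, at 10760. Against normal the change passed the test in MLL-AF1p (-2.62), MLL-AF10 (-3.67) and MLL-ENL (-3.64) and missed it in MLL-GAS7 (-1.52, adjusted p = 0.127) and MLL-AF9 (-1.34, 0.173). At the other Cd24a probe sets MLL-GAS7 mice gave -1.87 (limma adjusted p = 0.0475) and -1.71 (0.0793). MLL-AF9 mice gave -1.70 (0.0654) and -1.69 (0.0741) there. The 5 erythroid markers, with changes of -8.64 for Alas2 and -7.44 for Slc4a1, all fell over the 5 cohorts, and their part in the Cd24a change was not tested.

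Other genes of the B lineage, which are not members, were less uniform. Of 23 listed, 20 had a probe set with 1 symbol, and 12 fell and 3 rose, where 8.83% of all probe sets fell and 15.6% rose. The share of the 20 that rose is thus near that of all probe sets. The largest falls were in Ly6d, a marker of B-biased lymphoid progenitors (-3.14), the regulator Bcl11a (-1.89), Fcer2a, the low-affinity receptor for immunoglobulin E (-1.56), and Ikzf3, which encodes Aiolos (-1.46). The 3 that rose were Xbp1 (0.98), a regulator of the secretory pathway in many cells, Cd180 (0.97), a toll-like receptor relative, and Plcg2 (0.52), a phospholipase, both of which myeloid cells also make.

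Which members differed among the 5 fusions was asked without the normal samples in the contrast. By the F test of limma 6 of the 31 genes differed, against 3.33% of all probe sets. These were Ighm (adjusted p = 0.0024), Cd24a (0.0103), Cd22 (0.0104), Cd79b (0.0108), Cd72 (0.0366) and Tnfrsf13c (0.0415). None of the 7 early genes and none of the 6 transcription regulators passed at its brightest probe set, though 1 other probe set of Foxo1 did (adjusted p = 0.0298). Differences among cohorts are understated for genes as dim in the leukaemias as Rag1, Rag2, Vpreb1 and Dntt. Cd24a was called in no single cohort against the other 4, with adjusted p from 0.088 in MLL-ENL to 0.979 in MLL-AF1p mice. Within array set 1 alone, and within set 2 alone, 0 genes passed this F test in limma, where 0.202% and 0.671% of all probe sets passed. At an unadjusted p under 0.05 the counts were 13 of 31 in set 1 and 8 of 31 in set 2, where 10.2% and 13% of all probe sets passed. With the array set as a term in the fit of all arrays, 6 passed.

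In MLL-GAS7 mice 5 members were higher than in the other 4 cohorts and 0 lower, where 0.584% of all probe sets were higher and 1.29% lower. Of the 3 NK cell markers measured, Klrd1 was higher in MLL-GAS7 mice (1.1, limma adjusted p = 0.0013). The other NK markers, Ncr1 (0.14, 0.744) and Nkg7 (-0.5, 0.562), were not called. Among the T cell markers 0 of 7 were called, and among the plasmacytoid dendritic cell markers 0 of 5. The summed NK markers were 629 to 2233 in MLL-GAS7 mice and 439 to 4651 over all leukaemias. The plasmacytoid dendritic cell markers summed to a median of 4648 in MLL-GAS7 mice and of 1412 to 3256 in the other cohorts. The part of these cells in the difference was not tested. In all, 26 of the 31 genes had a positive difference, as had 41.3% of all probe sets, and 14 were higher at an unadjusted p under 0.05, as were 4.34% of all probe sets. After adjustment 9 of the 63 probe sets were called higher. Ighm, at its brightest probe set, was 6157, 7018, 7036, 9715 and 10634 in the 5 MLL-GAS7 mice, against medians of 4134 in MLL-AF9, 3713 in MLL-AF10, 2330 in MLL-ENL and 2030 in MLL-AF1p mice. All 5 MLL-GAS7 mice were high, and among the others only the highest MLL-AF10 mouse, at 9288, reached their range. The difference was 1.44 (adjusted p = 0.0029), and a second Ighm probe set gave 1.59 (adjusted p = 0.000975). Averaged over all 11 Ighm probe sets it was 0.22 (adjusted p = 0.609). Against normal marrow the brightest Ighm probe set missed the threshold in MLL-GAS7 mice (-0.97, adjusted p = 0.0882), as did Cd22 (-0.77, 0.179).

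Cd22 was 510, 520, 1038, 1073 and 2152 in the MLL-GAS7 mice, with medians of 450 in MLL-AF9, 324 in MLL-AF10, 292 in MLL-AF1p and 224 in MLL-ENL mice. The MLL-GAS7 mice lay above every MLL-ENL mouse and overlapped the upper part of the other 3 cohorts, and the difference was 1.36 (adjusted p = 0.00358), with 1.31 at the other Cd22 probe set (adjusted p = 0.00578). Tnfrsf13c was 130, 244, 322, 335 and 682 in the MLL-GAS7 mice, a difference of 0.89 (adjusted p = 0.0123). Cd72 was 300.8, 345, 436, 463 and 633 in them, a difference of 0.91 (adjusted p = 0.0293). Spib was 142, 210, 277, 681 and 862, a difference of 0.82 (adjusted p = 0.0353), where the 2 high mice were MLL-GAS7_408 and MLL-GAS7_407 and the other 3 lay within the range of the other cohorts. Bach2, at the probe sets that fell, was also higher in MLL-GAS7 mice, by 1.02 (adjusted p = 0.0436) and 1.0 (adjusted p = 0.0225).

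**Figure D4:**
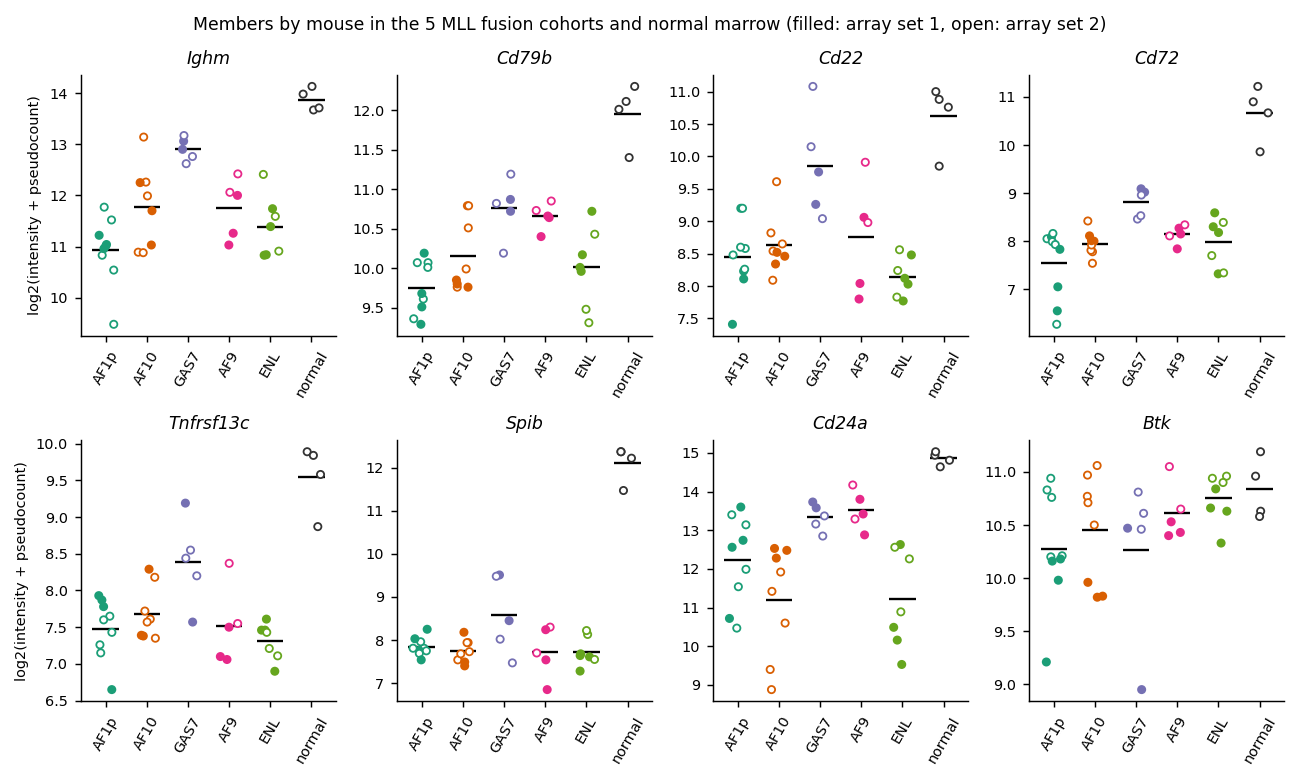
Log2(intensity + 46.1) by mouse for the 6 genes that differed among the cohorts, with Spib and Btk, by cohort with normal marrow on the right, where bars are group means, filled points are arrays of set 1 and open points arrays of set 2. The MLL-GAS7 points lie high for Ighm (6157 to 10634 in intensity) and 1 MLL-GAS7 mouse lies low for Btk (574).

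Part of the MLL-GAS7 difference rested on single mice. On the aligned log2 scale MLL-GAS7_407 had the highest level of the 34 leukaemias for 16 of the 31 genes, and MLL-GAS7_408 for 3. By intensity as deposited MLL-GAS7_407 was also highest for Ighm, Foxo1 and Mzb1. The summed intensity of the early genes was 2835 in MLL-GAS7_407, against at most 1199 in any other leukaemia and at least 5605 in normal marrow. For the mature genes the sums were 6352 in MLL-GAS7_407, 4520 at most in any other leukaemia and 7662 at least in normal marrow. The T cell marker sum of this mouse, 1999, was also the highest of the 34, and its array median, 206.8, the second highest, and their part in its B lineage values was not tested. Without MLL-GAS7_407, Ighm (1.40, adjusted p = 0.0117) and Cd22 (1.38, 0.00984) were called and the other 3 were not, and without MLL-GAS7_408, Ighm (1.48, 0.0111), Cd22 (1.05, 0.0438) and Tnfrsf13c (0.85, 0.0482) were called. Cd72 was also lost without MLL-GAS7_406 (0.86, adjusted p = 0.0576). Within array set 1 alone Ighm was called (1.64, adjusted p = 0.0457), with 11 members higher and 1 lower at an unadjusted p under 0.05, where 9.59% of all probe sets passed in either direction. Within set 2 alone 0 were called by limma, with 7 higher and 1 lower at an unadjusted p under 0.05 against 11.5% of all probe sets, and Ighm gave 1.22 (adjusted p = 0.225) and Cd22 1.33 (0.0762).

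In MLL-AF1p mice 2 receptor genes were lower than in the other 4 cohorts and 0 members higher, where 0.453% of all probe sets were lower and 0.213% higher. Ighm had a lowest, median and highest intensity of 780, 2030 and 3266 in MLL-AF1p mice and differed by -1.02 from the other 4 cohorts (adjusted p = 0.0179). Cd79b had 626, 810 and 1003 in MLL-AF1p mice, with medians of 1735 in MLL-GAS7, 1600 in MLL-AF9, 958 in MLL-AF10 and 928 in MLL-ENL mice, and differed by -0.64 (adjusted p = 0.0321). For Cd79b all MLL-AF1p mice lay below every MLL-GAS7 and MLL-AF9 mouse and overlapped the MLL-AF10 and MLL-ENL mice. For Ighm they lay below every MLL-GAS7 mouse and overlapped the other 3 cohorts. Averaged over its 11 probe sets Ighm differed by -0.36 (adjusted p = 0.296), and 2 of the 11 were called lower. In all, 0 members were called without MLL-AF1p_803 (Ighm -0.84, adjusted p = 0.0857, and Cd79b -0.59, 0.109). Cd79b was also lost without MLL-AF1p_801, MLL-AF1p_806, MLL-AF1p_810 or MLL-AF1p_811, with adjusted p between 0.0642 and 0.0814. Within each array set alone 0 members were called by limma in MLL-AF1p mice, with 6 lower at an unadjusted p under 0.05 in each, where 6.27% of all probe sets passed in set 1 and 8.87% in set 2 in either direction.

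By limma 0 members were called in MLL-AF10, MLL-AF9 or MLL-ENL mice against the other cohorts. At an unadjusted p under 0.05 the counts were 3 lower in MLL-AF10, 1 lower and 3 higher in MLL-AF9, and 5 lower and 2 higher in MLL-ENL mice, where 10%, 6.67% and 15% of all probe sets passed in either direction. Over all probe sets the shares called after adjustment were 0.0666% lower and 0.173% higher in MLL-AF10, 0.0533% lower and 0.158% higher in MLL-AF9, and 0.495% lower and 1.09% higher in MLL-ENL mice. In MLL-ENL mice 4 other Ighm probe sets were higher than in the other cohorts, by 0.52 to 1.47, and these were not the 2 that were higher in MLL-GAS7 mice. One of them had a lowest, median and highest intensity of 259, 586 and 1720 in MLL-ENL mice, against medians of 156 to 289 in the other cohorts, and differed by 1.13 (adjusted p = 0.0247).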

How the data were processed

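Whole marrow RNA of 34 leukaemic and 4 normal mice was measured on 1-colour Affymetrix arrays, with 1 array per mouse; the number of mice limits the precision. The values deposited by the authors are linear intensities of single probe sets, with a trimmed mean of 500 averaged over the arrays. Software, background correction and detection calls are not given in the sources used here. Of 45101 probe sets 64 are controls; 34945 carry 1 symbol, 932 several and 9160 none in the annotation used, and 34741 were matched by Entrez identifier to the RefSeq gene table of GRCm38.p6, which changed 0 symbols.

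Intensities were converted to log2(intensity + 46.1), the 25th percentile of all values. Array medians spanned 0.537, above a limit of 0.5, so the arrays were aligned to 1 common median. All 38 samples entered 1 limma 3.58.1 fit of 6 group means (R 4.3.3, 32 residual degrees of freedom), with moderated 2-sided tests adjusted by Benjamini-Hochberg over 45037 probe sets. No filter on low values was used, since members could pass it through normal marrow alone; 30 of the 31 genes would have passed it (Rag2 would not). The fit was tested on simulated data. All 31 members are named, each at its probe set with the highest mean. The members, lists, promoter motifs and the array sets were chosen with earlier results of these data known. The array sets are the split of the leukaemias shared by the most probe sets that separate them within every cohort, 11 against 3 for the next split. Some listed genes that are not members are not reported here. Nothing in the labels says that mice of a cohort received separately infected cells, so p-values measure the spread between mice. Alternatives were other pseudocounts, scalings, probe set rules, a filter, variance models, array weights, each sample left out, and the array sets.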

Additional observations from a re-analysis of the deposited data

Results flagged for a closer look

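Within groups of 4 to 9 mice, 13 of 186 sets of values held a mouse whose gap to its neighbour, as a share of the whole range, passed Dixon's critical value, which chance alone passes in about 1 in 20. Mice that stood high were MLL-AF10_798A for Rag1 (gap 0.6339 of the range), MLL-GAS7_406 for Rag2 (0.8896), MLL-AF9_308 for Il7r (0.7663), MLL-GAS7_407 for Pou2af1 (0.7434), MLL-AF9_307 for Foxo1 (0.829), and normal mouse 4 for Bach2 (0.9236) and for Foxo1 (0.8323). Mice that stood low were MLL-ENL_702 for Cd79a (0.6484), normal mouse 3 for Blk (0.9262), MLL-GAS7_407 for Btk (0.8095), MLL-AF10_799A for Bach2 (0.6958), MLL-AF1p_810 for Fcmr (0.5196) and MLL-AF9_305 for Mzb1 (0.8155). The effect differed between cohorts by limma's F test for Ighm (adjusted p = 0.0024), Cd24a (0.0103), Cd22 (0.0104), Cd79b (0.0108), Cd72 (0.0366) and Tnfrsf13c (0.0415).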

How the results depend on the processing

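The count of 29 genes lower in the 5 cohorts together was 27 to 30 under all alternatives, and the counts lower per cohort stayed within 1.5 times; no result reversed. The early median was -3.5 with a pseudocount of 16, -2.72 with 100, -2.78 with the mean of the probe sets of a gene, and -3.47 to -2.83 with 1 mouse left out. Over all alternatives the median of the transcription regulators ran from -2.29 to -1.33 and that of the mature genes from -2.11 to -1.74. Members called in MLL-AF1p mice against the other cohorts were 1 with a pseudocount of 16, 1 with the mean of the probe sets, 0 with array weights, 0 in either array set alone, and 0 to 2 with 1 mouse left out. In MLL-GAS7 mice they were 3 with array weights, 0 in set 2 alone, 1 in set 1 alone, and 2 to 5 with 1 mouse left out. In MLL-ENL mice 1 was called with values as deposited, with the mean of the probe sets and with array weights, and 0 to 1 with 1 mouse left out. The F test called 0 in either set alone. Restricting the arrays to 1 set leaves fewer samples; the other causes were not tested. Igll1 was not called without probe sets that can read several transcripts (-0.14, adjusted p = 0.752). The median change of all probe sets was 0.12, and -0.01 as deposited. The fits restricted to 1 array set, and the set as a term, were chosen after seeing the data. No paired analysis was possible because the groups share no replicate numbers. Dim probe sets such as those of Rag2 limit what can be measured.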
